A study of Mus musculus with 24 samples.

Results

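The regions described here are stretches of open chromatin that were called in LSK, CMP, GMP, CFUMK and iMK cells and in none of MEP, CFUE and ERY cells, and they are called MEP-absent elements below. They numbered 13434 of 203413 elements (6.6%). An element was a peak that overlapped, by at least 1 bp, a peak of the other library of its cell type, merged with the overlapping peaks of the 10 primary cell types, and calls in monocytes (MON) and neutrophils (NEU) were not used to choose the regions. The regions were chosen by their peak calls in the other 8 types, so their pattern there is a description and not a result.

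ATAC-seq, in which the Tn5 transposase cuts DNA that is not covered by nucleosomes, was performed on 12 mouse cell populations with 2 libraries each. The primary cells came from adult male C57BL6 mice, 5 to 8 weeks old. Bone marrow gave LSK (Lin-, Sca1+, cKit+ stem and multipotent progenitor cells), CMP (common myeloid progenitors), GMP (granulocyte and macrophage progenitors), MEP (megakaryocyte and erythroid progenitors), CFUE (erythroid colony-forming cells), ERY (erythroblasts), CFUMK (megakaryocyte colony-forming cells) and iMK (megakaryocytes), whereas MON and NEU came from peripheral blood. G1E-ER4+E2 is a single clone of the G1E line in which a GATA1-ER hybrid protein is active in estradiol (E2), and G1E is a GATA1-deficient line committed to the erythroid lineage. A pair of libraries could stem from separate mice or from 1 pool of cells that was divided. As it is not stated for each type which was the case, the p-values over libraries reflect a spread that may be technical. The comparison of the innate types with the lines was made over the means of types.

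Blood cell fate is set by transcription factors that compete for shared enhancers. PU.1, the ETS factor encoded by Spi1, drives the myeloid programme, RUNX1, ERG and FLI1 act in stem cells and megakaryocytes, and CEBP factors act in granulocytes and monocytes. GATA1 drives erythroid and megakaryocytic genes and is known to antagonize PU.1, whereas CTCF is bound at the borders of chromatin domains in nearly all cells.

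The sequences that carry the motifs behind the results are shown first. Elements are named by the nearest annotated transcript start of a protein-coding gene, which can lie inside the gene. The distance from that start follows in bp, positive in the direction of transcription. The sequences are of the mm10 plus strand (RefSeq), read 5′ to 3′, and capitals mark matches on either strand to the PU.1 motif GAGGAAGT and to the ERG/FLI1, GABPA, RUNX, CEBP, IRF, AP-1, GATA and CTCF motifs, whose letters are spelled out beside their shares, except for the longer CTCF motif, which is given by name. The ETS motifs differ in their first bases, so that no single site matches more than 1 of them. Spi1 +764, Fli1 +32728 and Tnfrsf1b +5706 were taken by the strength of their peaks, and the other sequences were chosen after their values were seen, as strong distal elements of at most 300 bp with a PU.1 motif (for Bcas1 +30387, a CTCF motif) near the centre. The Ltf and Irak3 elements were taken near genes of the lists described below. Spi1 +764 lay at chr2:91082980-91083363, within 1 kb of a start of Spi1, and the 200 bp about its centre, chr2:91083072-91083271, held a pair of ERG/FLI1 motifs.
Spi1 +764: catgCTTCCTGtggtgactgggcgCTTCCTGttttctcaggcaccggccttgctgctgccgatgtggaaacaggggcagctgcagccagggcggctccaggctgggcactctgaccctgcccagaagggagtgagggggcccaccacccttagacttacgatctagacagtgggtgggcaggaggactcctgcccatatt
Fli1 +32728 (chr9:32508768-32508965) lay inside Fli1, within 1 kb of the start of the antisense gene Gm27201, and held a PU.1 motif on the minus strand.
Fli1 +32728: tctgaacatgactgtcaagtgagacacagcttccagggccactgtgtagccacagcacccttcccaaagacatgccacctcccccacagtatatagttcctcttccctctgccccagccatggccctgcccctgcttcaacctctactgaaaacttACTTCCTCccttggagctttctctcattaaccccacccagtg
Tnfrsf1b +5706 (chr4:145241080-145241248) lay in an intron of Tnfrsf1b, a receptor of tumour necrosis factor, and held a CEBP motif beside a PU.1 motif.
Tnfrsf1b +5706: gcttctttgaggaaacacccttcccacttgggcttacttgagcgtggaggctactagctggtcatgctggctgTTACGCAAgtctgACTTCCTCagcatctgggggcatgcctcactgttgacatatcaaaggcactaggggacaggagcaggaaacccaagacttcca
Ltf +7592 (chr9:111046277-111046516) was intergenic, past the end of the lactoferrin gene, with a transcript start inside that gene as the nearest one. It held a pair of PU.1 motifs and an ERG/FLI1 motif.
Ltf +7592: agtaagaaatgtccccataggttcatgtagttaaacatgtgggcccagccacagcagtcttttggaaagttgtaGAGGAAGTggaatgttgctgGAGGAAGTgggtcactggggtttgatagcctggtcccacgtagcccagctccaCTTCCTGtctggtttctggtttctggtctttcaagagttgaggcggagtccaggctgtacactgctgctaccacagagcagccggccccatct
Irak3 +12064 (chr10:120189324-120189544) lay in an intron of Irak3, an inhibitor of Toll-like receptor signalling, and held 1 PU.1 motif.
Irak3 +12064: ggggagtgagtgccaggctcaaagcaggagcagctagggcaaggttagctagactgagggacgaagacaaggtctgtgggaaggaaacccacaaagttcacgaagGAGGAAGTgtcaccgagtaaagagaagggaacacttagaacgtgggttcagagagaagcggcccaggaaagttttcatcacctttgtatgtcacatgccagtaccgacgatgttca
Ogg1 -2547 (chr6:113330684-113330857), which was called in G1E and not in G1E-ER4+E2, lay in an intron of the DNA repair gene Ogg1 and held PU.1 motifs on both strands.
Ogg1 -2547: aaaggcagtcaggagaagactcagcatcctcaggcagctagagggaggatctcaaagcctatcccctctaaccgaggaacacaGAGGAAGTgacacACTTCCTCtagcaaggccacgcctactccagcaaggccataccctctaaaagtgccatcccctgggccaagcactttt
For contrast, Bcas1 +30387 (chr2:170319221-170319484) was called in the same types and in MEP as well, and held a CTCF motif between an ERG/FLI1 motif and an IRF motif.
Bcas1 +30387: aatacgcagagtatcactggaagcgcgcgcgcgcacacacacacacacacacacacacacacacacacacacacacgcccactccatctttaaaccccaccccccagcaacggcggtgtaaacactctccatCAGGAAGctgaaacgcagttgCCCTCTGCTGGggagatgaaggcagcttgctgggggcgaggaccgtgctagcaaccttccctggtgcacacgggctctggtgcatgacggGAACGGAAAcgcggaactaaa

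The MEP-absent elements made up 28.1% of the 47794 elements that were called in LSK, CMP, GMP, CFUMK and iMK together. A further 11212 (23.5%) were called in MEP but not in CFUE or ERY, and they serve below as the nearest comparison and are called MEP-retained elements. Another 19352 (40.5%) were open in all 8 types of the rule, and 3796 (7.94%) had other patterns. Of the elements called in GMP, 11.7% were MEP-absent.

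The absence from MEP rested on a pair of libraries. Of the MEP-absent elements, 10160 (75.6%) had no peak in either MEP library, 3129 (23.3%) had a peak in 1 of them, and 145 (1.08%) had a peak in both that did not overlap. No peak was present in any of the 6 MEP, CFUE and ERY libraries at 9353 elements (69.6%). Peak strength is given as a percentile of the score within its own list, with 100 for the highest. Just inside the threshold, the 3274 elements with a MEP peak had a median percentile of 26.5 in MEP and 70.7 in the 5 open types. Just outside it, the MEP-retained elements had a median of 63.5 in MEP and 72.2 in the open types. The relative depth, read from the steps between the lowest scores of a list, was 82.6% and 62.8% of the deepest library in MEP. The libraries of the 5 open types ran from 40.2% up to the deepest library itself, GMP replicate 1. The MEP lists held 165774 and 160409 peaks, and those of the open types held 135309 to 230877. Of the open-type lists, only that of LSK replicate 2 (135309) was shorter than the MEP lists. Whether the length of the lists gave part of the absence from MEP was not tested. In the cell lines the relative depth was 22.3% to 27.0%.

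The MEP-absent elements, like the MEP-retained ones, were seldom among the strongest elements. The elements called in the 5 open types were divided by mean percentile into 5 groups of equal size. MEP-absent elements made up 43.4%, 34.6%, 31.5%, 24.5% and 6.54% from the weakest group to the strongest. The share of MEP-retained elements also fell, from 32.1% in the weakest group to 10.3% in the strongest. That of elements open in all 8 types rose from 14.0% to 80.5%. Among the open types the median percentile was 65.4 in LSK, 75.7 in CMP, 78.9 in GMP, 68.3 in CFUMK and 72.4 in iMK. GMP held the highest value of the 5 at 5183 elements (38.6%), CMP at 3180, iMK at 3106, LSK at 1625 and CFUMK at 340. These values come from lists of different length. By library the medians were 70.5 and 66.5 in CFUMK and 69.8 and 75.6 in iMK, which overlap.

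**Figure D1:**
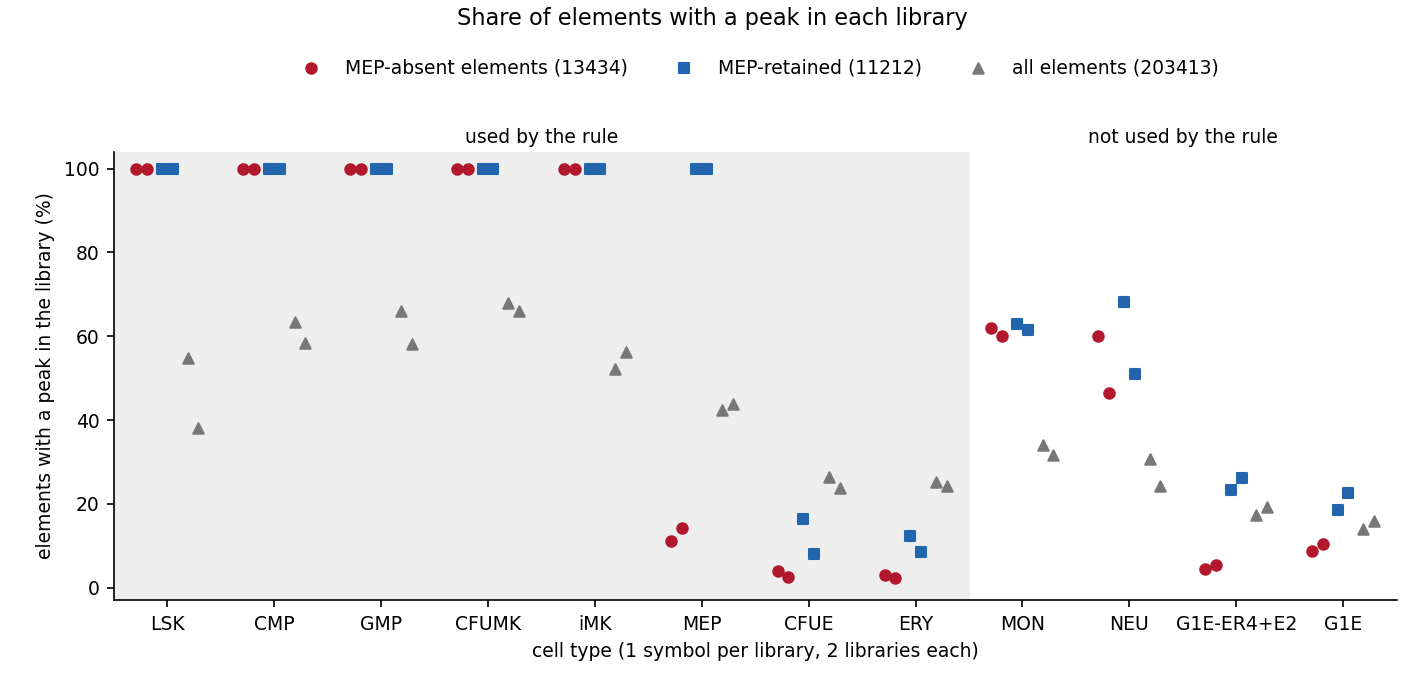
Percent of MEP-absent, MEP-retained and all elements (y axis, %) with a peak in each of the 24 libraries, 1 symbol per library, by cell type on the x axis; grey shading marks the types whose calls chose the elements. MEP-absent elements had a peak in 46.5% to 62.1% of cases in the MON and NEU libraries, in 4.44% and 5.40% in the G1E-ER4+E2 libraries and in 8.72% and 10.5% in the G1E libraries.

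The labels were checked with marker promoters, counted where a reproducible peak lay within 500 bp of a start. The neutrophil and monocyte markers were open more often in CMP, GMP, CFUMK and iMK than in MEP, CFUE and ERY, whereas LSK stood close to MEP. Of 6 GMP markers, 6 were open in CMP, GMP and CFUMK, 5 in iMK and 3 in LSK, against 3 in MEP and 1 in CFUE and ERY. Of 7 LSK markers, 6 were open in LSK, CMP, GMP and CFUMK and 5 in iMK, against 5 in MEP and 1 in CFUE and ERY. Of 6 monocyte markers (Csf1r, Ly6c2, Ccr2, Cx3cr1, Ms4a6c, Cd14), 6 were open in GMP and iMK, 5 in CMP and CFUMK and 2 in LSK, against 1 in MEP and 0 in CFUE and ERY. Of 6 neutrophil markers (S100a8, S100a9, Cxcr2, Csf3r, Ly6g, Retnlg), 6 were open in iMK, 4 in GMP, 3 in CFUMK, 2 in CMP and 1 in LSK, against 0 in MEP, CFUE and ERY. MON itself had 5 of the 6 monocyte markers open, without Ccr2, and 1 of the 6 neutrophil markers. NEU itself had 4 of the 6 neutrophil markers open, without Ly6g and Retnlg, and 4 of the 6 monocyte markers. Of 8 megakaryocyte markers, 6 were open in CFUMK, 4 in iMK, 7 in LSK, 8 in CMP and 5 in GMP, against 5 in MEP. In iMK every neutrophil and monocyte marker promoter was open, beside 4 of the 8 megakaryocyte ones. Over the whole granulocyte list of 25 genes, 22 promoters had a peak in each iMK library and 21 and 18 in the CFUMK libraries, against 5 and 2 in the MEP libraries. Over the whole megakaryocyte list of 28 genes, 18 and 20 promoters had a peak in the iMK libraries and 23 in each CFUMK library, against 18 and 20 in the MEP libraries. The 2 LSK libraries differed, with 22 granulocyte promoters in replicate 1 and 10 in replicate 2, and without LSK replicate 2 the rule gave 21545 elements in place of 13434. Whether other cells in the sorts gave part of the openness in iMK and CFUMK was not tested. Of 7 erythroid markers, 6 were open in CFUMK, 5 in iMK, 4 in CMP and GMP and 2 in LSK, against 6 in MEP and 7 in CFUE and ERY. Ly6a, which encodes Sca1, had no reproducible promoter peak in any type, LSK included, and NEU had all 6 B cell marker promoters, against 3 in MON, whose part in the NEU values below was not tested. In bulk samples, fewer open cells and less opening per cell cannot be told apart.

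The first question was whether elements shared by progenitors and megakaryocytic cells are also open in the innate cells of the blood, whose calls played no part in the choice. MON called 51.7% of the MEP-absent elements (95% Wilson interval 50.9% to 52.6%, counting error only), against 26.0% of all elements. NEU called 43.3% (42.5% to 44.2%), against 21.6% of all elements. The MON libraries had a peak at 62.1% and 60.01% of the MEP-absent elements, against 34.0% and 31.6% of all elements. The NEU libraries had one at 59.99% and 46.5%, against 30.8% and 24.3% of all elements. Each of the 4 libraries thus had a peak at the MEP-absent elements more often than at all elements. The MEP-retained elements were close to them in MON, which called 51.2% of them, and NEU called 47.9%. By library, 63.0% and 61.5% of them had a peak in the MON libraries and 68.2% and 51.0% in the NEU libraries. The difference of MON minus NEU was 7.80 percentage points over libraries and did not pass a two-sided exact permutation test (p = 0.333, the smallest that 2 libraries against 2 allow). It was 14.6 points without NEU replicate 1 and 1.10 without NEU replicate 2.

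The MON and NEU calls overlapped to a similar extent at the MEP-absent and the MEP-retained elements. Both called 4686 MEP-absent elements (34.9%), MON alone 2262, NEU alone 1133, and neither called 5353 (39.8%). The elements called in both were the strongest in the 5 open types, with a median percentile of 81.6, and those called in neither the weakest, with 58.9. The MON-only and NEU-only elements lay between them, at 71.7 and 68.5. Among the MEP-retained elements the share called in both was 37.5% and the share called in neither 38.3%. Over all elements these shares were 16.0% and 68.5%.

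In the erythroid lines the MEP-absent elements were mostly closed. G1E-ER4+E2 called 3.57% of them (95% Wilson interval 3.27% to 3.90%) against 15.6% of all elements, and G1E called 7.44% (7.01% to 7.90%) against 12.7% of all elements. By library the share was 4.44% and 5.40% in G1E-ER4+E2 and 8.72% and 10.5% in G1E, and the values of the lines did not overlap. Over all elements the order was the other way, with 17.4% and 19.2% in G1E-ER4+E2 and 14.1% and 15.8% in G1E. At the MEP-retained elements it was 23.3% and 26.1% in G1E-ER4+E2 and 18.6% and 22.5% in G1E. The ratio of G1E-ER4+E2 to G1E was thus 0.514 at the MEP-absent elements, 1.20 at the MEP-retained elements and 1.22 over all elements. The difference at the MEP-absent elements was -4.66 percentage points and did not pass the same two-sided exact permutation test (p = 0.333, the smallest possible), and its difference from the other classes was not tested. The G1E-ER4+E2 lists were the longer ones, with 62408 and 70306 peaks, against 52720 and 58011 in G1E.

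Sharing between the lines differed by the side it was counted from. Of the 1000 MEP-absent elements called in G1E, 33.4% were also called in G1E-ER4+E2, against 79.0% over all elements, 70.7% of MEP-retained elements and 97.9% of elements open in all 8 types. Of the 480 called in G1E-ER4+E2, 69.6% were also called in G1E, against 64.2% over all elements and 58.6% of MEP-retained elements. G1E alone called 666, G1E-ER4+E2 alone 146, and both called 334. G1E called 12.95% of the MEP-absent elements open in both MON and NEU and 3.70% of those open in neither. These groups also differed in strength, with median percentiles in the open types of 81.6 and 58.9. Whether peak strength gave the difference in G1E calls was not tested. The innate types and the lines differed by 49.9 percentage points in the share of MEP-absent elements with a peak. This share was 57.1% over the MON and NEU libraries and 7.26% over the G1E-ER4+E2 and G1E libraries. The exact permutation p was 0.333 over the means of the 4 types, the smallest possible. The same difference was 38.3 points at the MEP-retained elements, 16.0 at the elements open in all 8 types and 13.5 over all elements. With Benjamini-Hochberg adjustment over the 3 comparisons the exact permutation p stayed at 0.333. The lists of the lines were the shorter ones. At the MEP-absent elements the difference was 32.4 points when each of the 8 lists was held to its 52000 highest scores. That setting was chosen after the data were seen.

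The MEP-absent elements lay away from promoters. Within 1 kb of an annotated transcript start were 15.6% of them, 29.6% of the MEP-retained elements, 65.9% of the elements open in all 8 types and 23.0% of all elements. A further 45.2% lay in introns, 34.7% between genes and 4.53% in exons, and the median distance to a start was 8226 bp. Their median width was 332 bp, against 354 bp in the MEP-retained elements and 247 bp over all elements. The few elements that G1E-ER4+E2 called were more often at promoters (32.1%) than those that G1E called (22.9%). Another MEP-absent element lay within 5 kb of 21.7% of them, against 20.1% for MEP-retained elements within their own class.

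The sequences of the MEP-absent elements differed from those of the MEP-retained elements in a few motifs, which were counted in the 200 bp about the centre and, to leave promoters aside, in the elements over 1 kb from a start. A PU.1 motif was present in 16.3% of 11336 distal MEP-absent elements (95% Wilson interval 15.7% to 17.0%), in 6.03% of 7888 distal MEP-retained elements (5.53% to 6.58%) and in 7.31% of all distal elements. Over all MEP-absent elements, promoters included, the share was 15.9%, against 1.53% in windows moved by 10 kb from them. The ERG/FLI1 motif (CAGGAAG) was present in 23.9%, 15.5% and 15.9% of the same 3 sets, the RUNX motif (AACCACA) in 14.1%, 10.2% and 9.63%, and the IRF motif (GAANNGAAA) in 10.0%, 6.52% and 7.80%. The CEBP motif (TTGCNNAA), at 12.01%, 9.75% and 12.1%, was close to its share over all distal elements. An ETS, RUNX or CEBP motif of any kind was held by 54.6% of distal MEP-absent elements, 37.6% of distal MEP-retained elements and 39.2% of all distal elements.

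CTCF and GATA motifs ran the other way. The CTCF motif was found in 1.16% of distal MEP-absent elements (0.983% to 1.38%), in 13.9% of distal MEP-retained elements (13.1% to 14.6%) and in 25.96% of distal elements open in all 8 types, against 4.79% of all distal elements. The GATA motif (AGATAA) was found in 7.20% of distal MEP-absent elements (6.74% to 7.69%), in 11.7% of distal MEP-retained elements and in 15.04% of all distal elements. Promoters included, it was found in 6.88% of the MEP-absent elements, against 11.2% of the windows moved by 10 kb. The E-box (CAGNTG, read by TAL1 and E proteins) was present in 45.7%, 48.2% and 46.3% of distal MEP-absent, MEP-retained and all elements, and the KLF/SP motif (CCNCNCCC) in 21.9%, 22.8% and 21.4%. The NF-E2 motif (GCTGANTCA, which contains AP-1) of megakaryocytic and erythroid genes was present in 2.47%, 2.09% and 2.22%, the AP-1 motif (TGANTCA) in 10.9%, 8.46% and 9.17%, and the HOX/MEIS motif (TGATTNAT) in 2.29%, 1.91% and 2.25%. The GABPA motif (CCGGAAG) stood at 2.60%, 2.55% and 1.57% and the STAT motif (TTCCNGGAA) at 0.82%, 0.62% and 0.62%. A match is a run of letters and does not show that a factor was bound.

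**Figure D2:**
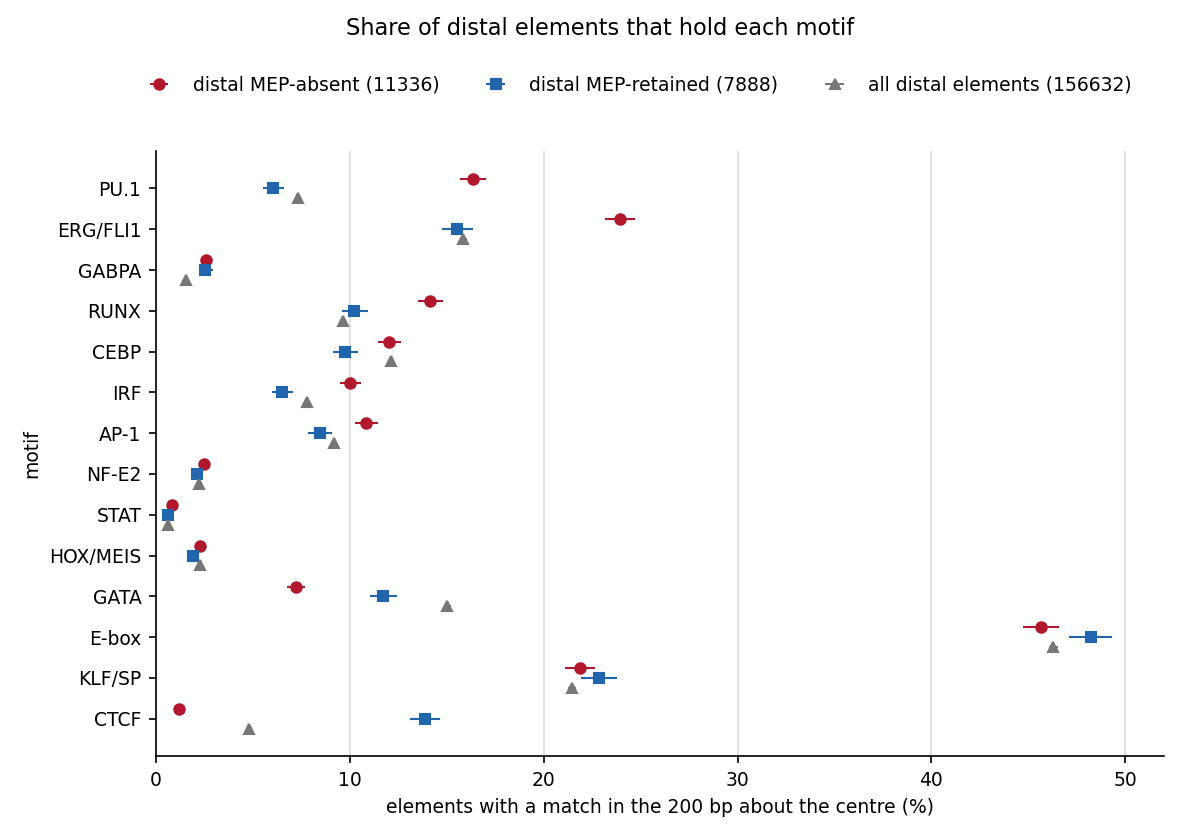
Percent of distal MEP-absent (11336), MEP-retained (7888) and all (156632) elements with at least 1 match to each of 14 motifs (y axis) in the 200 bp about the centre (x axis, %); bars are 95% Wilson intervals. The PU.1 (16.3%), ERG/FLI1, RUNX and IRF motifs were more frequent in MEP-absent than in MEP-retained elements, and the CTCF and GATA motifs were less frequent.

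The PU.1 and RUNX matches of the MEP-absent elements lay near their middle, shifted towards higher coordinates. PU.1 matches per 100 of these elements numbered 1.10 in the bin at -50 bp and 2.53 at 50 bp. CTCF matches in the elements open in all 8 types were shifted as well, at 0.77 and 4.97 in the same bins. The 200 bp windows and the bins within 60 bp were thus not centred on the matches, and the source of the shift was not tested. PU.1 matches numbered 2.12 per 100 distal MEP-absent elements in an average 20 bp bin within 60 bp of the centre and 0.15 beyond 300 bp, and in the MEP-retained elements 0.71 and 0.15. RUNX matches numbered 1.78 and 0.54 in the MEP-absent elements. CTCF matches numbered 0.17 within 60 bp of the centre of MEP-absent elements, 1.94 in MEP-retained elements and 3.53 in elements open in all 8 types. For GATA the profile of the MEP-absent elements dipped, with 0.72 within 60 bp and 1.22 beyond 300 bp, whereas the MEP-retained elements stood at 1.27 in both.

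**Figure D3:**
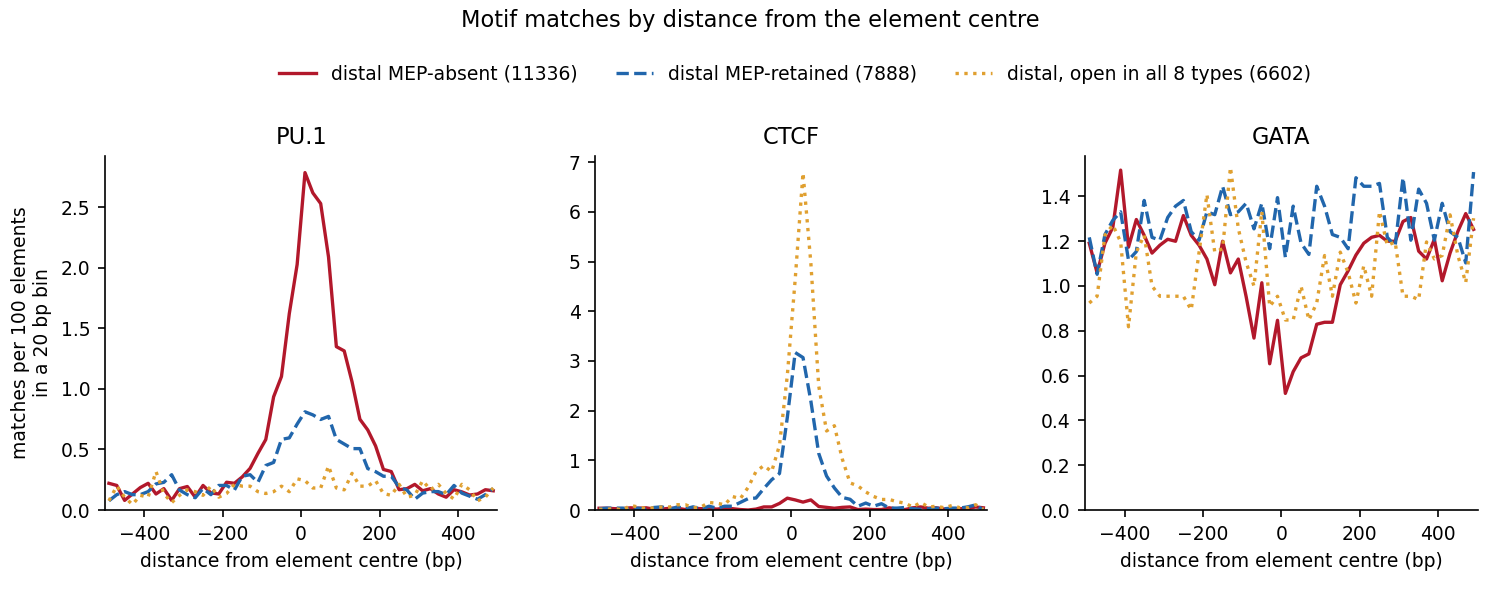
Matches to the PU.1, CTCF and GATA motifs per 100 distal elements in bins of 20 bp (y axis, starting at 0) by distance from the element centre in bp (x axis) for MEP-absent, MEP-retained and all-8-type elements. In MEP-absent elements PU.1 rose to a central peak and GATA dipped, and CTCF stayed low at 0.17 within 60 bp of the centre; the maxima lie slightly right of the centre.

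Among all MEP-absent elements, promoters included, the motifs varied with the other calls. The PU.1 motif was held by 18.7% of the elements called in both MON and NEU, 14.5% of MON-only, 17.3% of NEU-only and 13.9% of those called in neither. IRF was held by 11.52%, 10.3%, 7.94% and 8.43% in the same order, and GATA by 5.55%, 6.81%, 6.27% and 8.20%. RUNX was more frequent in those called in neither (14.8%) than in those called in both (11.95%). Elements called in G1E held a PU.1 motif in 21.5% and a GATA motif in 11.7% of cases, and those called in neither line in 15.5% and 6.49%. In the 480 elements called in G1E-ER4+E2 the PU.1 motif stood at 15.4% and the GATA motif at 8.54%. The NF-E2 motif stood at 6.25% in these, 4.50% in those called in G1E and 2.22% in those called in neither line. Over all MEP-absent elements the NF-E2 motif stood at 2.41%. PU.1 and RUNX motifs did not gather in the same elements: RUNX was present in 11.9% of the MEP-absent elements with a PU.1 motif and in 13.6% of those without.

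The elements were assigned to genes where their centre lay in the gene or within 20 kb of it, so that an element could count for several genes. At least 1 MEP-absent element was assigned to 7807 of 21911 protein-coding genes (35.6%), and 20.9% of the assignments of elements open in the 5 types were MEP-absent. That share was 50.6% near the granulocyte list (42 of 83 assignments) and 40.7% near mast cell, basophil and eosinophil genes (24 of 59). Near innate receptor and signalling genes it was 37.9% (66 of 174), and near monocyte and macrophage genes 35.1% (39 of 111). It was 33.1% near stem and progenitor genes (60 of 181), 32.9% near myeloid transcription factors (46 of 140) and 28.6% near megakaryocyte and platelet genes (34 of 119). It was 17.8% near erythroid genes (18 of 101) and 5.97% near housekeeping genes (4 of 67). Lymphoid lists stood at 25.5% (B cell, 14 of 55) and 24.6% (T and NK cell, 17 of 69), genes repressed by GATA1 at 27.5% (14 of 51) and genes of other tissues at 23.3% (10 of 43). These shares are descriptions of lists and were not tested.

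**Figure D4:**
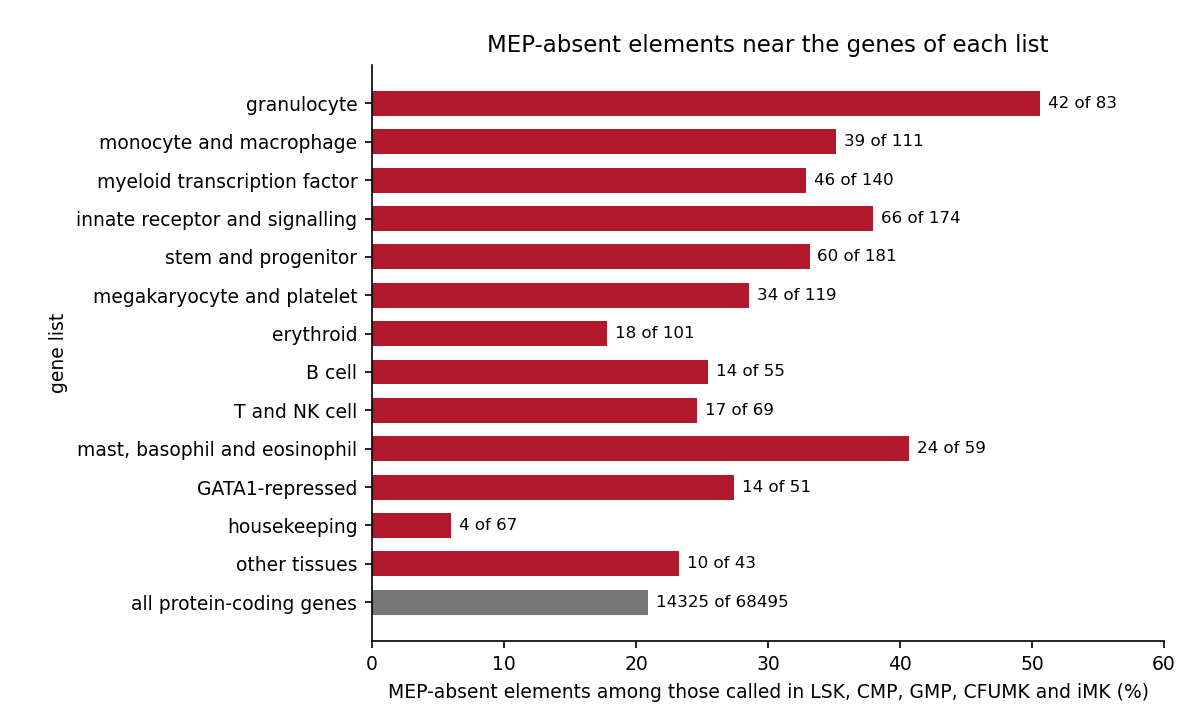
Percent of gene assignments that were of MEP-absent elements (x axis, starting at 0) in each gene list (y axis). The assignments are of elements called in LSK, CMP, GMP, CFUMK and iMK, and an element near several genes counts for each. Counts of assignments stand beside each bar, and all protein-coding genes are in grey. The granulocyte list stood highest (50.6%) and the housekeeping list lowest (5.97%), against 20.9% for all protein-coding genes.

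Granulocyte genes held MEP-absent elements at 18 of 25. Itgam, which encodes the integrin CD11b, had 7 among 9 elements open in the 5 types. Cxcr2, a chemokine receptor of neutrophils, and Gfi1, a repressor needed for granulocytes, had 4 each, which were all of their elements open in those types, and Fpr1, the receptor of formyl peptides, had 4 of 5. The strongest element of the list, Itgb2 +20751 (chr10:77550982-77551279, in an intron of the gene for the shared chain of the CD11 integrins), had percentiles of 67.9 (LSK replicate 2) to 99.7 in the open libraries and no peak in MEP, CFUE, ERY or either line. It stood at 99.4 and 99.3 in MON and at 98.7 and 98.1 in NEU.

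Monocyte and macrophage genes held them at 17 of 24. Cx3cr1, the fractalkine receptor, had 7 of 22, and Csf1r, the receptor of the growth factor of macrophages, had 5 of 5, as did Adgre1, which encodes F4/80, with 4 of 4. Ctss, a lysosomal protease, had 3 of 5. Spi1 +764 was the strongest of the list and lies at the gene of PU.1 itself. Its percentiles were 97.9 and 96.98 in LSK, 97.5 and 97.2 in CMP, 98.9 and 98.8 in GMP, 95.8 and 96.1 in CFUMK and 98.2 and 98.0 in iMK. It had 1 peak in MEP, at percentile 68.7 in replicate 1, and none in CFUE or ERY. It was called in MON (99.04 and 98.0), in NEU (95.8 and 95.01), in G1E-ER4+E2 (56.6 and 46.6) and in G1E (72.0 and 81.9965), so that it was called in both erythroid lines and not in the primary erythroid cells.

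Myeloid transcription factors held them at 17 of 26. Bach2, a repressor known in B cells and progenitors, had 12 of 23, Nfkb1 had 7 of 13, and Gfi1 and Runx1 had 4 of 4 and 4 of 12. The strongest, Egr1 -3418 on chromosome 18, was intergenic, held a PU.1 and an ERG/FLI1 motif and stood at 91.6 to 99.4 in the open libraries and at 59.6 and 38.5 in G1E, with no peak in G1E-ER4+E2, MEP, CFUE or ERY. Innate receptor and signalling genes held MEP-absent elements at 25 of 27, the highest share of the lists. Irak3 and the kinase gene Lyn had 7 each, of 12 and 14, and Nod2, a sensor of bacterial cell walls, and Plcg2, a phospholipase of immune signalling, had 5 each, of 10 and 9. Nod2 +11153 (chr8:88662377-88662611, intronic) stood at 97.2 to 99.2 in the open libraries, at 14.4 in CFUE replicate 2 and at 53.2 and 75.03 in G1E.

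Irak3 +12064, shown above, had a mean percentile of 84.1 over the open libraries. Its percentiles were 81.9 and 67.9 in LSK, 89.1 and 86.2 in CMP, 89.2 and 85.8 in GMP, 82.6 and 82.2 in CFUMK and 86.5 and 89.1 in iMK. MON stood at 62.8 and 73.0 and NEU at 71.8 in replicate 1 only, and no peak was present in MEP, CFUE, ERY or the lines. Ltf +7592 stood at 91.6 to 97.1 in the open libraries, at 81.8 and 84.1 in MON and at 48.3 in NEU replicate 1. Ogg1 -2547 stood at 92.3 to 97.7 in the open libraries and at 80.7 and 78.4 in G1E, with no peak in G1E-ER4+E2.

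Stem and progenitor genes held them at 20 of 28. Etv6 had 6 of 10, Mecom 6 of 9, Ikzf1 5 of 9 and Fli1 4 of 10. Etv6, Mecom and Fli1 encode factors of blood stem cells, and Ikzf1 encodes IKAROS, a factor of lymphoid and myeloid cells. None of the 6 at Mecom was called in MON or NEU, nor were the 4 at Prdm16 and the 3 at Erg, genes of stem cells that were named after their values were seen. Other genes of the list differed: 4 of the 6 at Etv6 were called in MON and 5 in NEU. Of the 5 at Ikzf1 the numbers were 4 and 5, of the 4 at Fli1 4 and 3, and of the 4 at Runx1 4 and 2. Over all MEP-absent elements, 39.8% were called in neither MON nor NEU. Fli1 +32728 stood at 94.6 to 98.9 in the open libraries, at 57.6 in MEP replicate 1, at 98.3 and 97.7 in MON, at 94.4 and 88.7 in NEU, and at 29.4 and 35.6 in G1E.

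Megakaryocyte and platelet genes held MEP-absent elements at 13 of 28, fewer than the myeloid lists. Plek, which encodes pleckstrin of platelets and leukocytes, had 7 of 12, P2ry12, the ADP receptor of platelets, 6 of 8, and Fli1 and Itgb3, a platelet integrin, 4 each, of 10 and 7. Of the 7 at Plek, 4 were called in MON and 5 in NEU. The strongest, Plek -2 (chr11:17008604-17008803), covered an annotated start of a shorter transcript inside Plek. It stood at 98.3 and 93.2 in LSK, 98.9 and 99.3 in CMP, 99.1 and 98.4 in GMP, 97.9 and 96.9 in CFUMK and 98.6 and 98.99 in iMK. MEP replicate 1 had a peak at 54.7 and MEP replicate 2 none. The lines stood at 53.5 and 54.1 in G1E-ER4+E2 and at 87.5 and 82.6 in G1E.

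Erythroid genes held them at 10 of 28, 35.7% of them and close to the 35.6% of all protein-coding genes. Bcl11a, a repressor of fetal globin, had 3 of 8, the membrane protein gene Epb41 3 of 10, and the adult beta-globin genes Hbb-bs and Hbb-bt 2 each, of 3 and 4. The elements of Hbb-bs and Hbb-bt can be the same ones, as the genes are neighbours. The strongest, Epb41 -3232 (chr4:132078423-132078682), was intergenic and stood at 55.9 to 95.8 in the open libraries and at 78.7 in CFUE replicate 2.

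In the other lists, among the genes with most MEP-absent elements were Mitf (4), Il1rl1 (3), Ear1 (2) and Hdc (2) of mast cells, basophils and eosinophils, and Cd247 (3), Cd5 (3) and Cd2 (2) of T and NK cells. In B cells they were Ebf1 (3), Fcer2a (3), Blnk (2) and Cd79b (1), and among genes repressed by GATA1 they were Vav1 (4), Cbfa2t3 (3), Myb (3) and Il3ra (2). The housekeeping genes with any were Rab7 (2), Gapdh (1) and Pgk1 (1), and in other tissues Syn1 (4), Alb (2), Mbp (2) and Myh6 (1) led.

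**Figure D5:**
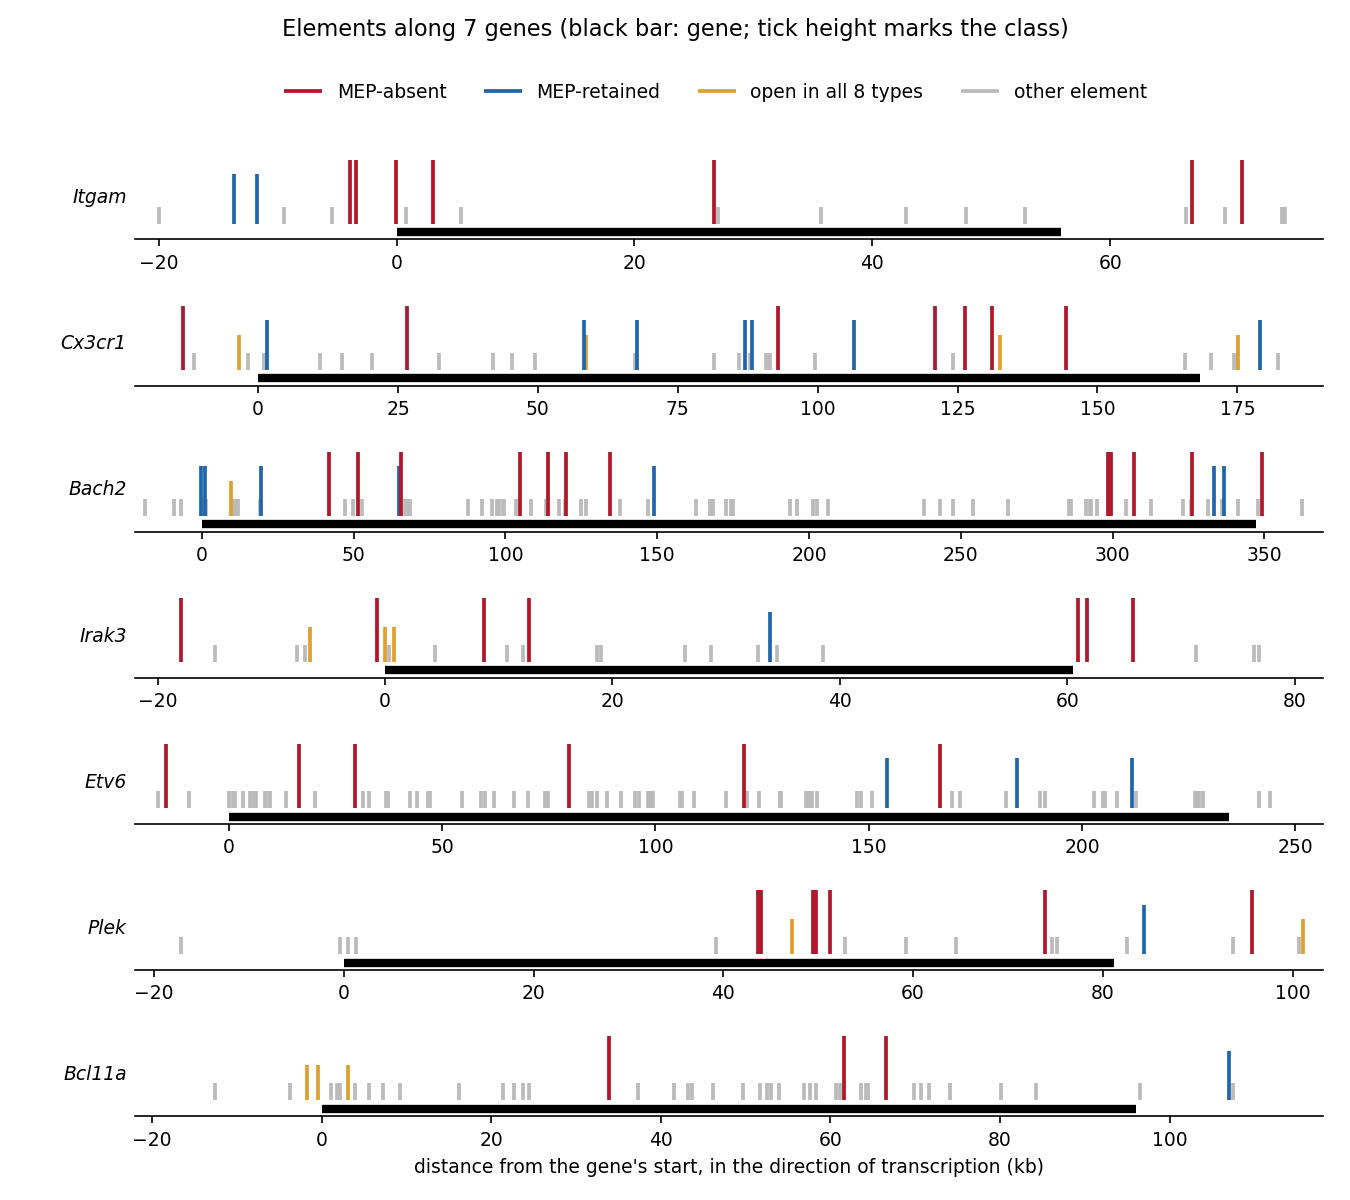
Elements along the gene with most MEP-absent elements in each of 7 lists, by distance from the gene's start in kb (x axis, 20 kb on each side of the gene); the tallest ticks are MEP-absent elements, and lower ticks are MEP-retained elements, elements open in all 8 types and other elements. MEP-absent elements were spread over introns and flanks, with 7 at Itgam, 7 at Cx3cr1, 12 at Bach2, 7 at Irak3, 6 at Etv6, 7 at Plek and 3 at Bcl11a.

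Counted over all protein-coding genes, the largest numbers were at long genes. Gm20388, a gene model of 4435 kb that spans many other genes, had 48, and Fgfr2, whose model spans 2961 kb, had 19. Foxp1 and Pde4d had 17 each, Asap1 15, Cmss1 14, Gm20696, which overlaps Foxp1, 13, and Zfp532, Atp8b4, Creb5, Filip1l and Bach2 12 each. Cmss1 and Filip1l overlap and share elements. All 12 elements at Zfp532 that were open in the 5 types were MEP-absent, as were 12 of 13 at Creb5. Of 8669 genes with 4 or more elements open in the 5 types, 38 had MEP-absent elements only, among them the chemokine genes Ccl3 (5), Ccl4 (4) and Ccl5 (4) and the interferon-induced Gbp8 (7), Gbp9 (6) and Gbp4 (5), genes that were chosen after their values were seen and some of which share elements. The 38 also held genes of neither kind with similar counts, such as Nrg1 (8), Ncald (7), Adgrl3 (6), Ildr2 (6) and Oprm1 (6).

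The strongest MEP-absent elements of all were Cass4 +7340 (chr2:172401159-172401323), Tnfrsf1b +5706, Acss1 -5513 (chr2:150673825-150674200) and Mob3a -1649 (chr10:80695227-80695543). They stood at 98.2 to 99.7, 97.5 to 99.3, 91.9 to 99.99 and 96.1 to 99.6 in the open libraries, listed in that order. Cass4 +7340, inside a gene for a focal adhesion scaffold, had a peak in MEP replicate 2 (50.6) and stood at 86.7 and 81.3 in G1E with none in G1E-ER4+E2. Tnfrsf1b +5706 and Acss1 -5513 had no peak in MEP, CFUE, ERY or the lines and stood at 96.5 or above in all MON and NEU libraries. Mob3a -1649 had a peak in MEP replicate 2 (81.0), in G1E-ER4+E2 (60.6 and 76.2) and in G1E (82.7 and 81.9965).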

How the data were processed

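ATAC-seq peaks were deposited for 24 libraries of 12 cell types. For these files, the authors aligned reads trimmed to 30 bp to mm10 (Bowtie 0.12.8), discarded mitochondrial alignments and ran HOMER separately on every library. The submitters' notes also list SAMtools 1.6 and bedtools. The deposited peak score has no stated scale and was used only as a percentile within its list and, through its steps, for relative depth. A call depends on depth. No list of artefact regions was applied here. Library numbers of the CFUMK, iMK, CMP, GMP, ERY, CFUE and MEP samples form 2 runs with 1 library of each type, whose meaning is not stated and which enter no test, and those of LSK, MON, NEU and the lines stand apart.

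Groups follow the labels. Reproducible peaks were merged over the 10 primary types. Starts and genes were from GENCODE vM21 and sequence from RefSeq (GRCm38.p6). Motifs were letter searches on both strands. Genes named were the 12 protein-coding genes with most elements and up to 4 genes in each list (ties by symbol); elements named were the strongest near 7 of the lists and the 4 strongest. Some genes that this rule names are not reported here. Members, lists and motifs were chosen with earlier results of these data known. 1 granulocyte and 1 innate gene name were not matched. Work was done in Python 3.11.15 with scipy 1.17.1, pandas 2.3.3, numpy 2.4.6 and matplotlib 3.10.9, and was tested on simulated peaks. Alternatives were stricter scores, overlaps and absence, other windows and distances, and leaving out each library.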

Additional observations from a re-analysis of the deposited data

How the results depend on the processing

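The number of MEP-absent elements was 7558 with the scores above the median of each list and 7073 with the 85000 highest scores of each. Leaving out 1 of the 24 libraries gave 11526 (without MEP replicate 1) to 21545 (without LSK replicate 2, 1 library that moved the count over 1.5 times). The share at promoters was 19.5% and 18.1% under the score limits, 16.5% with 50% of a peak shared between libraries, 12.8% with no peak in any MEP, CFUE or ERY library and 11.03% within 500 bp of a start, and 14.2% to 16.0% without 1 library. Under the same first 4 settings the PU.1 motif was held by 17.97%, 18.5%, 17.5% and 17.3% of MEP-absent elements and GATA by 5.97%, 6.32%, 6.34% and 6.43%, and both depended on the window, with 9.72% and 3.08% in 100 bp and 21.7% and 13.1% in whole elements. Without 1 library PU.1 was held by 14.6% to 16.6% and GATA by 6.44% to 7.79%.

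Alternatives added after the data were seen were the lists of 52000 peaks, distal elements only and the motif shares of distal MEP-absent minus distal MEP-retained elements. That difference for PU.1 was 12.9, 12.2, 11.8 and 11.6 points under the first 4 settings and 9.43 to 10.5 without 1 library. For CTCF it was -17.3 with the scores above the median and -13.6 with 50% of a peak shared, and -12.8 to -11.2 without 1 library. For GATA it was -3.57 with the scores above the median and -5.03 to -3.99 without 1 library. Innate minus line stayed at 46.4 to 53.3 points, MON minus NEU at 1.10 (without NEU replicate 2) to 14.6 (without NEU replicate 1) and G1E-ER4+E2 minus G1E at -5.53 to -3.33 without 1 library, and no difference changed sign. With lists of 52000 peaks they were 32.4, 1.36 and -5.42. What moved these values was not tested. No paired analysis was possible because only MON, NEU and the lines enter a test and no library number is shared between them.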
